A study of Mus musculus with 5 samples.

Results

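The 9 genes described here encode the nutrient transporters that activated T cells are known to rely on: the glucose carriers Slc2a1 and Slc2a3, the amino acid carriers Slc7a5, Slc3a2, Slc1a5 and Slc7a1, the lactate and pyruvate carriers Slc16a1 and Slc16a3, and the transferrin receptor Tfrc. They were taken as a named list, which was chosen with earlier results of these data known. All 9 were found among the 22367 protein-coding genes of GENCODE vM1 (mouse genome mm9). Each gene was given a window of its gene body with 20 kb added on both sides. All called regions sharing at least 1 bp with a window were counted, and they came to 11 of the 9135 Runx3-bound regions and 31 of the 18992 H3K4me1-marked regions of the study.

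The regions came from ChIP-seq of CD8-TC, the CD8+ T cells of ICR mouse spleens, which were isolated on anti-CD8 beads, TCR-activated for 2 days with anti-CD3e and anti-CD28 and then grown for 4 days in 100 u/ml of human IL-2. The 5 libraries, all from cells cultured in this manner, were 2 precipitations with a home-made polyclonal antibody to Runx3, 2 with non-immune rabbit serum (NIS) and 1 with a monoclonal antibody to H3K4me1. The question was where Runx3, a Runt domain transcription factor that CD8+ T cells need for their cytotoxic program, binds in these cells, with H3K4me1, a histone mark abundant at enhancers, as the map of enhancer-type chromatin. Each antibody has a single peak list with positions alone, so each value below is a position or a count without replicate error, without the number of reads behind it and without a test. The lists hold no expression values, so neither the cell type nor the expression of the 9 genes was checked with them.

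A resting T cell takes up few nutrients, and stimulation through the TCR and IL-2 is followed by more transporters at the cell surface, as background. Slc2a1 (GLUT1) and Slc2a3 (GLUT3) let glucose in. Slc7a5 (LAT1) carries leucine and other large neutral amino acids and works only as a dimer with Slc3a2 (the CD98 heavy chain), Slc1a5 (ASCT2) carries glutamine and other neutral amino acids, and Slc7a1 (CAT1) carries arginine and lysine. Slc16a1 (MCT1) and Slc16a3 (MCT4) move lactate together with a proton, and Tfrc (CD71) takes up iron bound to transferrin.

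The DNA under the Runx3-bound regions is shown first, because the RUNX motif is the element by which RUNX proteins contact DNA. The RUNX motif was searched as TGTGGT or TGTGGC or TGCGGT or TGCGGC on both strands. Sequences are the plus strand of mm9 from 5′ to 3′, and capitals mark RUNX matches, which read in reverse complement where the motif lies on the minus strand. The central 200 bases are given for the region with most matches of each gene that had one clear of exons. These are the intronic region of Slc2a1 18.62 kb into the gene (chr4:118799840-118800039), the region 3016 bp upstream of the Slc2a3 gene start (chr6:122754574-122754773) and the region 14784 bp upstream of Tfrc (chr16:32594122-32594321).
Slc2a1 intron: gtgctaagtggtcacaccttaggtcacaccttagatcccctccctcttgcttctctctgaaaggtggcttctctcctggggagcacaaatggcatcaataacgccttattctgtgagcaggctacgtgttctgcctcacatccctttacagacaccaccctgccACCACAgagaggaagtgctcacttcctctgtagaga
Slc2a3 upstream: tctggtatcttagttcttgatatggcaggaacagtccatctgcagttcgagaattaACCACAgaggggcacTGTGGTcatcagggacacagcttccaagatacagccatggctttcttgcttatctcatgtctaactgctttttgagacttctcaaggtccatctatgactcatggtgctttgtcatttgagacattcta
Tfrc upstream: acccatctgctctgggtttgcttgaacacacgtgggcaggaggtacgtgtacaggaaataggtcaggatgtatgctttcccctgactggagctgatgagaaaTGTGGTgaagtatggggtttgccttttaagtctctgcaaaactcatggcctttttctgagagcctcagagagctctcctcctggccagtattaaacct

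For the other regions with a match, 30 bases around the match nearest the centre are shown. They lie at the Slc2a1 start (chr4:118781234-118781263), in the Slc2a1 intron 17.38 kb from the start (chr4:118798596-118798625), at the inner starts of Slc2a3 (chr6:122692710-122692739), in the first part of Slc1a5 (chr7:17367355-17367384), in the 3′ UTR of Slc16a1 (chr3:104461437-104461466) and at the Tfrc start (chr16:32608839-32608868).
Slc2a1 start: ccagagccagacTGTGGTcagtagccctcc
Slc2a1 first intronic: gcagccagtgtgACCGCAggcactgtagac
Slc2a3 inner start: ctcctgctttttACCACAtcctcctcgtgg
Slc1a5 start: gcaggtggttgcTGCGGTtcccgtgaccgg
Slc16a1 UTR: tTGTGGTgagaaTGTGGTgagaatttagag
Tfrc start: tggagaaagcgaGCCGCAgccaatcgcacg

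A Runx3-bound region was present in the windows of 6 of the 9 genes, namely Slc2a1 and Tfrc with 3 regions each, Slc2a3 with 2, and Slc3a2, Slc1a5 and Slc16a1 with 1 each. Slc7a5, Slc7a1 and Slc16a3 had 0. Among all protein-coding genes, 34.2% had at least 1 Runx3-bound region in such a window, compared to 66.7% of the 9. All protein-coding genes include genes silent in these cells, so their share is no baseline of active genes. Whether the difference is particular to nutrient transporters was not tested. With 3 or more regions, Slc2a1 and Tfrc belonged to 5.42% of all genes. H3K4me1-marked regions were present in 7 of the 9 windows (77.8%), compared to 39.3% of all genes. Slc16a1 had 8 of them, Tfrc 7, Slc2a1 6, Slc2a3 4, and Slc7a5, Slc3a2 and Slc1a5 2 each. Slc7a1 and Slc16a3 had neither kind of region, which was the case for 52.7% of all genes.

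**Figure D1:**
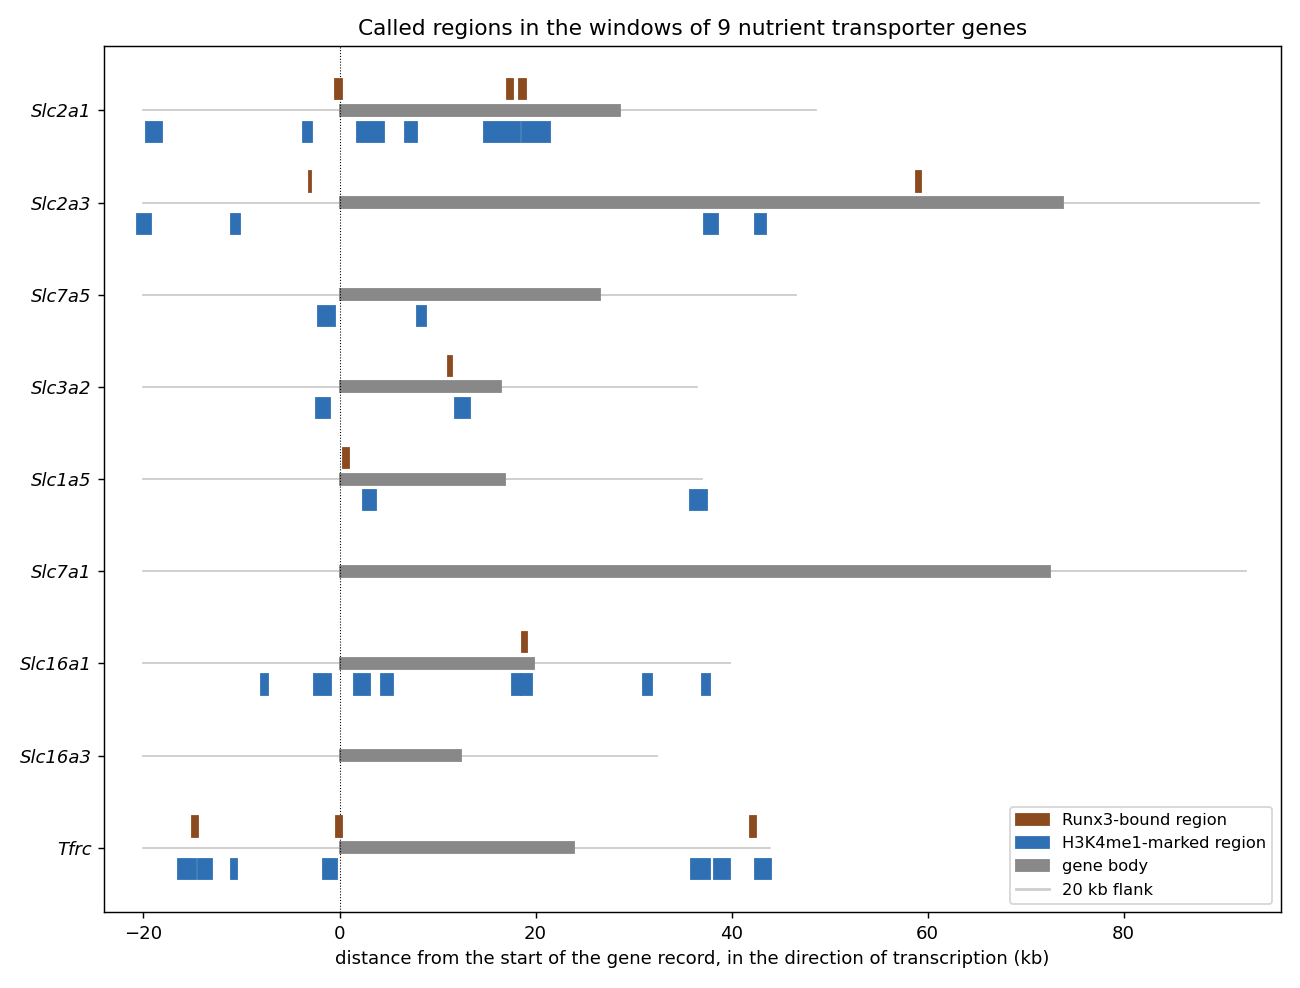
Maps of the 9 gene windows, drawn by distance in kb from the start of the gene record in the direction of transcription, with gene bodies in grey, 20 kb flanks as thin lines, Runx3-bound regions in brown above and H3K4me1-marked regions in blue below. Slc2a1 and Tfrc carry 3 Runx3-bound regions each, while the windows of Slc7a1 and Slc16a3 are empty.

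The member windows were 52.4 to 113.8 kb long with a median of 63.9 kb, and the median over all genes was 55.4 kb. Per 100 kb of window, the members held 1.69 Runx3-bound and 4.76 H3K4me1-marked regions, compared to 0.674 and 1.32 over all genes. H3K4me1-marked regions covered 6.93% of the member windows and 2.35% of all gene windows. No 2 member windows overlapped, so each of their regions was counted once. Windows of other genes do overlap, so the values over all genes can count a region more than once.

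**Figure D2:**
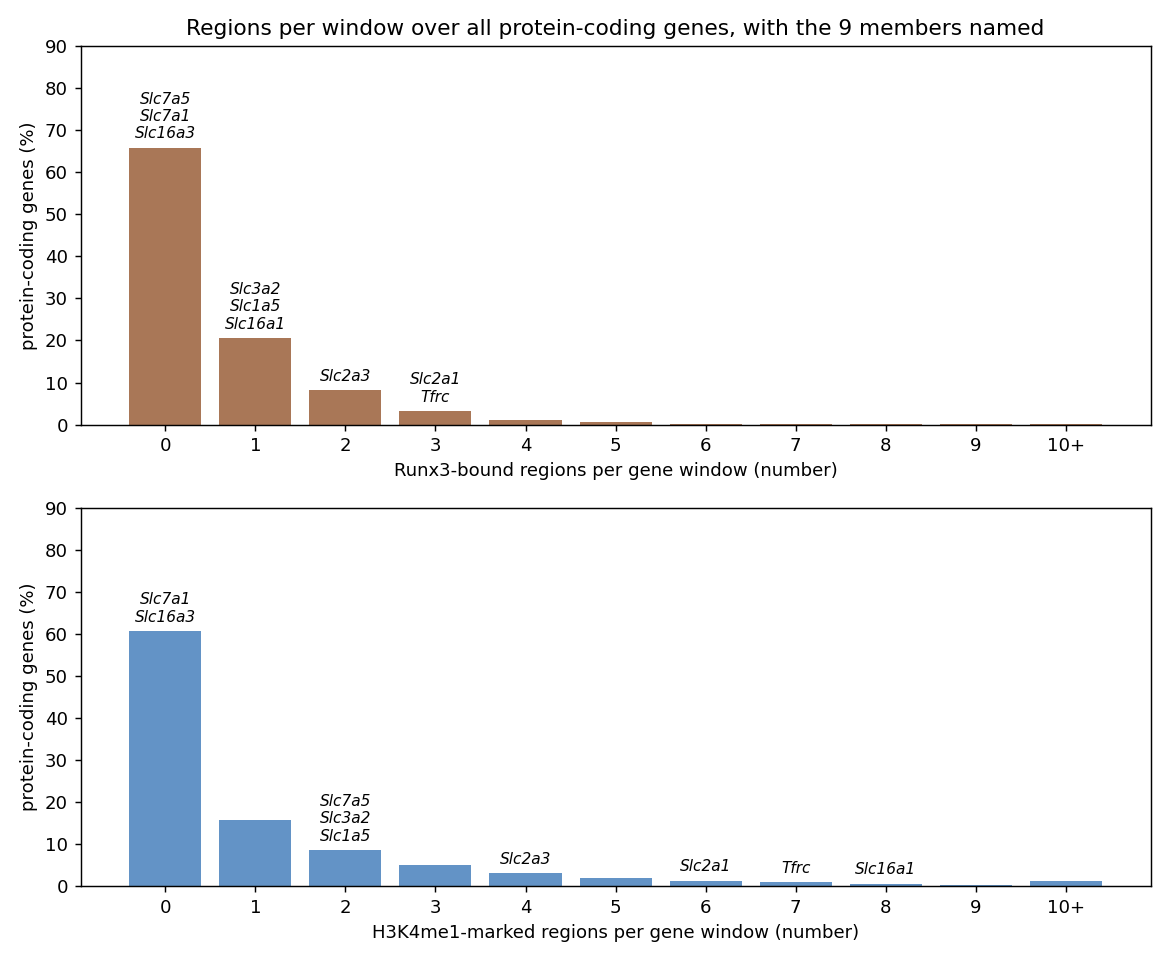
Share of the 22367 protein-coding genes (%) by number of Runx3-bound regions (upper panel) or H3K4me1-marked regions (lower panel) in the gene window, with the members written above the bar they fall in. Of all genes, 65.8% have no Runx3-bound region and 60.7% have no H3K4me1-marked region, and 3 and 2 of the 9 members are among them.

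Slc2a1, a main glucose carrier of activated T cells, lies on chromosome 4 (118781316 to 118809935, plus strand). Its first Runx3-bound region (118780874 to 118781595, 722 bp) spanned the gene start, with its centre 82 bp from it, and reached into the first exon. The second (118798399 to 118798987, 589 bp) and the third (118799583 to 118800298, 716 bp) lay in introns, 17.38 and 18.62 kb downstream. The region at the start did not overlap H3K4me1. It lay in a gap of 4562 bp between marked regions, and the nearest marked region, 2732 bp wide, was 1515 bp away. Both intronic regions overlapped H3K4me1. The second was covered along its whole width by a marked region of 3684 bp, the widest of the 31. The third bridged a gap of 172 bp between that region and the next, of 2842 bp, and shared 76.0% of its bases with them. The 6 marked regions of the window covered 18.9% of it, a share reached by 2.32% of all genes.

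Tfrc (chromosome 16, 32609006 to 32632880, plus strand), which provides iron for dividing cells, had as many Runx3-bound regions as Slc2a1. All 3 overlapped H3K4me1. One (32608601 to 32609304, 704 bp) was centred 54 bp from the gene start and shared 27.1% of its bases with a marked region of 1438 bp that ended upstream of the start. Another (32593924 to 32594520, 597 bp) was intergenic, 14784 bp upstream, shared 79.9% with a marked region and extended into a gap of 144 bp before the next. The last (32650890 to 32651516, 627 bp) lay in an intron of the neighbouring gene Tnk2, which encodes a tyrosine kinase, 7243 bp from the Tnk2 start and 42.2 kb from that of Tfrc. This region, and the 3 marked regions over Tnk2, were nearer to the start of Tnk2 than to that of Tfrc. The body of Tfrc itself had 0 H3K4me1-marked regions, and all 7 of its window lay in the flanks. Their cover of 16.6% was reached by 3.13% of all genes.

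In addition to Tfrc, 19 protein-coding genes had 3 Runx3-bound regions, 7 H3K4me1-marked regions and 3 Runx3-bound regions overlapping the mark. The first of them in alphabetical order were 2210010C17Rik, 6330512M04Rik and Amz2. For the numbers of Slc2a1 there were 21 such genes.

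Slc2a3, the glucose carrier with high affinity for its substrate, has a gene record of 73.83 kb with 8 annotated transcript starts (chromosome 6, 122677827 to 122751658, minus strand). One Runx3-bound region (122692364 to 122692862, 499 bp) was 59.04 kb downstream of the outermost start. It nevertheless lay at a start, since other transcripts of the gene begin there. Its centre was 73 bp from the nearest start of any transcript and 150 bp from the nearest start of a protein-coding transcript, and it overlapped UTR and coding sequence. Measured by gene records alone, the nearest gene start was that of Nanog, 35106 bp away. The other region (122754549 to 122754799, 251 bp) was intergenic and 3016 bp upstream of the outermost start. It was narrower than nearly all others, as 1.36% of the Runx3 list was narrower still. Neither region overlapped H3K4me1, and the nearest marked regions were 15332 and 7055 bp away. Of the 4 marked regions, 2 lay in an intron of Slc2a3, and the other 2 were nearer to the start of Foxj2, a forkhead transcription factor gene.

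Each amino acid carrier had fewer regions of either kind in its window than Slc2a1, Tfrc or Slc2a3. Slc1a5 (chromosome 7, 17366695 to 17383623, plus strand) had 1 Runx3-bound region (17367067 to 17367695, 629 bp) centred 686 bp inside the gene over UTR and coding sequence, and 1410 bp from the nearest of its 2 marked regions. Slc3a2 (chromosome 19, 8781372 to 8797859, minus strand) had 1 (8786377 to 8786779, 403 bp), which lay 11.28 kb inside the gene with its centre in an intron and an edge in a coding exon. This region missed the marked region beside it, 1581 bp wide, by 275 bp. The second marked region of Slc3a2 (8798820 to 8800209) lay over Snhg1, the snoRNA host gene next to it, 1655 bp from the Slc3a2 start. Slc7a5, the partner of Slc3a2, had 2 marked regions (chromosome 8, 124422734 to 124423741 in an intron, and 124432036 to 124433825 upstream, in an intron of BC048644, with its centre 1336 bp from the start), but the nearest Runx3-bound region was 55.4 kb from its start. Slc7a1 (chromosome 5, 149138986 to 149211480, minus strand) was the gene farthest from any region. The nearest Runx3-bound region was 421 kb from its start, a distance reached by 17.2% of all genes, and the nearest marked region 90.2 kb.

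The lactate carriers differed from each other. Slc16a1 (chromosome 3, 104442591 to 104462385, plus strand) had most marked regions of the 9 genes. Of the 8, 4 overlapped its body, 2 lay upstream and 2 downstream, covering 15.3% of the window, and 2.35% of all genes had as many. No other protein-coding gene was annotated in this window. Its only Runx3-bound region (104461247 to 104461713, 467 bp) was 18.89 kb downstream of the start, in the 3′ UTR, and was covered completely by a marked region of 1097 bp. A second marked region of the 3′ UTR was separated from that one by 11 bp. Slc16a3 (chromosome 11, 120809794 to 120822182, plus strand) had neither, and its start was 71.2 kb from the nearest Runx3-bound region and 41.4 kb from the nearest marked region. The respective medians over all gene starts were 72.8 and 60 kb.

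By position, 3 of the 9 genes (Slc2a1, Slc1a5 and Tfrc) had a Runx3-bound region centred within 1 kb of the start of the gene record, compared to 8.83% of all genes. When any transcript start was allowed, Slc2a3 joined them, and 4 of the 9 compared to 10.4% of all genes. An H3K4me1-marked region was centred within 5 kb of the gene start in 6 of the 9, all but Slc2a3, Slc7a1 and Slc16a3, compared to 15.8% of all genes. Centres of the 11 Runx3-bound regions were intergenic in 4 cases, intronic in 4, in UTR in 2 and in coding sequence in 1. The intergenic centres include those of the start regions of Slc2a1 and Tfrc, 82 and 54 bp upstream of the gene start. Both of these regions reach into the gene. Of the 31 marked regions, 17 had their centre in an intron, 11 between genes, 2 in UTR and 1 in a non-coding exon.

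Overlap of both lists was seen for 6 of the 11 Runx3-bound regions (54.5%, 95% Wilson interval 28.0 to 78.7%, for counting error among regions only), compared to 57.3% of the Runx3 list. They belonged to 3 genes, Slc2a1, Slc16a1 and Tfrc, and 17.8% of all genes had such a region. Of the 4 regions within 1 kb of a transcript start of their gene, 1 (Tfrc) was marked, and of the other 7, 5 were. Those 5 include the 2 intronic regions of Slc2a1, which touch the same marked region. The same split of the whole Runx3 list is not given here, so these numbers have no reference. From the other side, 6 of the 31 marked regions (19.4%) held a Runx3-bound region, compared to 29.2% of the H3K4me1 list. The unmarked regions of Slc2a1, Slc1a5 and Slc3a2 were 275 to 1515 bp from a marked region, and those of Slc2a3 were 7055 and 15332 bp from one.

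The 11 Runx3-bound regions were 251 to 722 bp wide, with a median of 597 bp compared to 521 bp for the Runx3 list, and 7 were wider than that median. Those at the starts of Slc2a1 and Tfrc were among the wider ones, since 87.5% and 85.7% of the list were narrower. The 31 marked regions were 610 to 3684 bp wide with a median of 1438 bp, compared to 1592 bp for the list, and 12 were wider than the list median. The 8 marked regions of Slc16a1 were 737 to 1684 bp wide, 6 of them narrower than the list median, whereas 3 of the 6 at Slc2a1 were 2732, 2842 and 3684 bp wide.

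RUNX motifs were found in 9 of the 11 Runx3-bound regions, 23 matches in all, compared to 92.6% of the Runx3 list. The regions of Slc3a2 and of the Tnk2 intron had 0 matches. Most matches, 4, were found over the whole length of the Slc2a1 intronic region 18.62 kb from the start. Only 1 of these lies in the central 200 bases printed above. The match nearest to a region centre was that upstream of Tfrc, 4 bp away. A match lay entirely within the central 200 bp in 7 of the 11 regions, compared to 78.8% of the list. Counted by the centre of the match, 8 regions had one, compared to 79.5% of the list, since the match nearest to the centre of the Tfrc start region, 98 bp away, crosses the edge of the 200 bp. Of the matches entirely within, TGTGGT was present in 5 regions (54.3% of the list) and TGCGGT in 2 (13.6% of the list). By place, the central 200 bp of Slc1a5 held 2 TGCGGT and 0 TGTGGT, and that of the Slc2a1 start 1 TGTGGT and 1 TGTGGC.

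Other motifs were searched in the same manner, on both strands and with the share of the Runx3 list given for the same 200 bp. The ETS motif (AGGAAA or AGGAAG or CGGAAA or CGGAAG), recognized by a family of transcription factors of lymphocytes, was found in the central 200 bp of 7 of the 11 regions, compared to 66.2% of the list. The Tnk2 intron region without a RUNX match had 6 ETS matches over its whole length, the highest number of the 11. Within these 200 bp, a RUNX and an ETS match at most 50 bp apart were found in 3 regions (39.0% of the list), those of Slc16a1, of Tfrc upstream and of the Slc2a1 intron. RUNX matches at most 50 bp from each other were found in 2 (25.7% of the list), those of Slc16a1 and of Slc2a3 upstream.

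The AP-1 motif (TGACTCA or TGAGTCA), bound by Fos and Jun proteins, was found in the centre of 2 regions, the first intronic one of Slc2a1 and the one upstream of Slc2a3, compared to 6.50% of the list. The STAT motif (TTCNNNGAA), bound by STAT proteins that act downstream of IL-2, was found in 2 as well (10.7% of the list). They were the first intronic region of Slc2a1, with 1 match 8 bp from its centre, and the UTR region of Slc16a1, with 2. The E-box CACGTG, a motif of Myc, occurred in the centre of 1 region, upstream of Tfrc (4.76% of the list). Every such E-box also counts as a match of the hypoxia response motif (ACGTG or GCGTG), which was found in 5 of the centres (29.3% of the list). The amino acid response motif (TGATGNAA) was found in 0 centres (2.36% of the list). These are matches of letters, and binding of the respective factors was not measured.

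**Figure D3:**
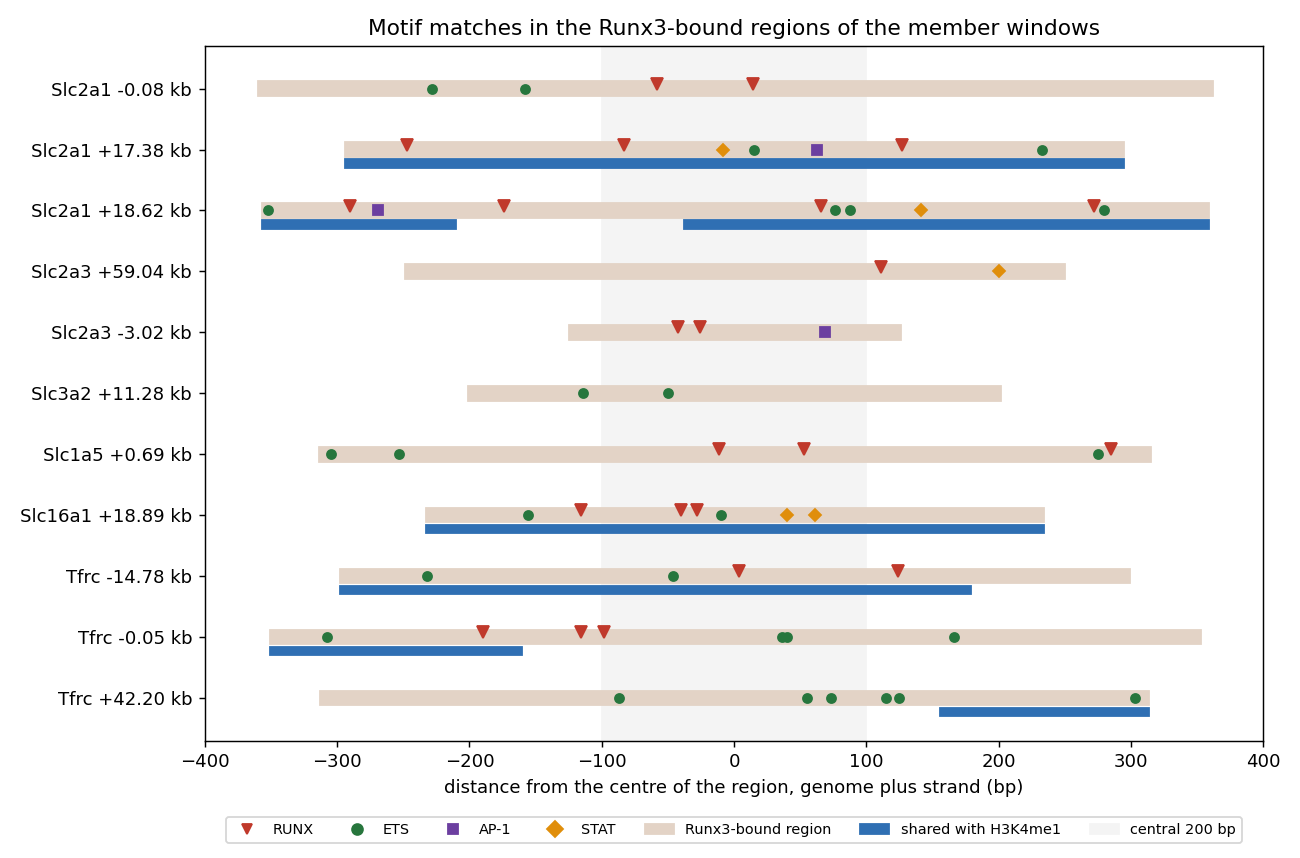
Matches of 4 motifs in the 11 Runx3-bound regions, by distance in bp from the region centre on the plus strand, with each region as a bar to scale, the part shared with H3K4me1 in blue under it and the central 200 bp shaded. Red triangles (RUNX) are found in 9 regions, and the regions of Slc3a2 and of the Tnk2 intron, 42.2 kb from the Tfrc start, have none.

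GC content of the 11 regions had a median of 48.9%, compared to 49.1% for the Runx3 list. It was highest at the starts of Slc1a5 (64.4%), Tfrc (61.4%) and Slc2a1 (58.6%) and lowest in the UTR region of Slc16a1 (41.5%).

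Other genes of nutrient uptake were counted in 6 groups, with 100 genes in all. Of these, 43 (43%) had a Runx3-bound region in the window and 50 (50%) a marked region, compared to 34.2% and 39.3% of all genes and to 6 and 7 of the 9 members. Their windows were longer, with a median of 72.3 kb. A Runx3-bound region that overlapped the mark was found for 15 of the 100, compared to 17.8% of all genes. A Runx3-bound region within 1 kb of the gene start was found for 6, compared to 8.83% of all genes. Both counts were near the shares of all genes.

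Among the relatives of Slc2a1 and Slc2a3, 3 of 12 hexose carriers had a Runx3-bound region (Slc2a8, Slc2a10 and Slc5a1, 1 each). Within 1 kb of the gene start, 0 of 12 had one, compared to 8.83% of all genes, and 12 genes are few for such a comparison. Of 35 further amino acid carriers, 12 had at least 1. Slc36a1 and Slc38a2, carriers of small neutral amino acids, had 2 each, all of them overlapping H3K4me1, and Slc43a2, another carrier of large neutral amino acids, had 1 within 1 kb of its start and 7 marked regions. The share with a Runx3-bound region was 25% for the hexose carriers and 34.3% for the amino acid carriers, compared to 34.2% of all genes.

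For monocarboxylate carriers and their chaperones the number was 8 of 14 (57.1%), compared to 34.2% of all genes. The windows of the neighbours Slc16a11 and Slc16a13 overlap, so 1 region, at the Slc16a13 start, counted for both genes. Emb, which encodes the chaperone embigin, had 5 Runx3-bound regions, all overlapping H3K4me1, and 12 marked regions in its window. Slc16a5 had 2, both overlapping the mark, and Bsg, the chaperone basigin that brings Slc16a1 and Slc16a3 to the cell surface, had 1, which overlapped the mark. Of 14 genes of iron handling, 7 had a Runx3-bound region. They were led by Slc11a1, a metal carrier of phagocytes, with 3, Slc25a37, the mitochondrial iron carrier, with 2, and Slc11a2, a ferrous iron carrier, with 1.

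Regulators of nutrient uptake had a Runx3-bound region in 8 of 14 cases (57.1%) and a marked region in 12 of 14 (85.7%). The shares of all genes were 34.2% and 39.3%. However, the median window of these regulators was 87.7 kb, compared to 55.4 kb for all genes, and a longer window can hold more regions. Sgk1, a kinase that regulates carriers and channels, had 6 Runx3-bound regions, of which 5 overlapped the mark, in a window of 158 kb, and Pik3cd, the catalytic PI3K delta subunit of leukocytes, had 5, of which 1 overlapped. Rptor, a subunit of mTORC1, had 2 in a window of 337 kb. Of 11 genes for lipid and nucleoside uptake, 5 had a Runx3-bound region, with 3 at the nucleoside carrier gene Slc29a1 and 1 each at Slc27a1 and Scarb1.

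**Figure D4:**
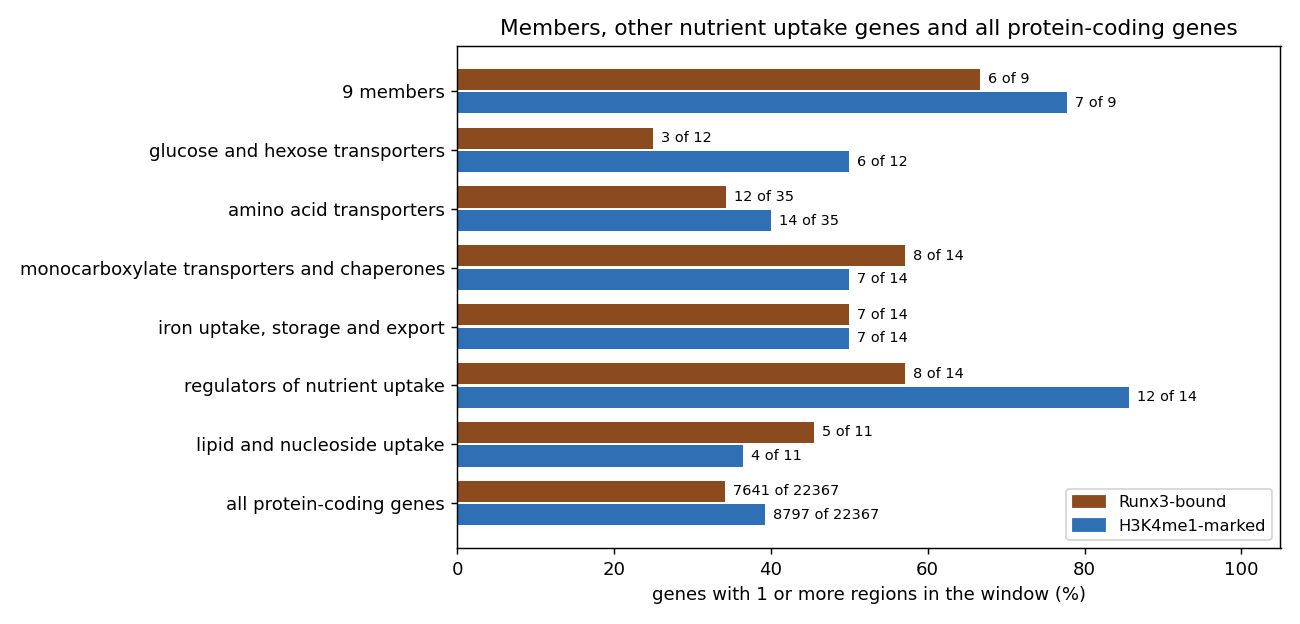
Share of genes (%) with at least 1 Runx3-bound region (brown) or H3K4me1-marked region (blue) in the gene window, for the 9 members, 6 groups of other nutrient uptake genes and all protein-coding genes, with the number of genes beside each bar. The bars of the members reach 66.7% and 77.8%, against 34.2% and 39.3% for all genes.

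The width of the flank set which genes were counted for distant regions. In gene bodies alone, 6 of the 9 genes had a Runx3-bound region, compared to 18.0% of all genes, and they were the same 6. With flanks of 50 kb, Slc7a5 joined them with 2 regions, Slc1a5 rose from 1 to 5, and the share of all genes was 47.9%. Marked regions rose from 2 to 8 at Slc7a5 and from 2 to 6 at Slc1a5 when the flanks went from 20 to 50 kb. Slc7a1 had 0 regions of either kind also with 50 kb, and Slc16a3 had 1 marked region and 0 Runx3-bound regions.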

How the data were processed

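The deposited values were start and end positions in bp of peaks on mm9, in 1 list for Runx3 and 1 for H3K4me1, with 0 number columns beyond position. The authors aligned reads with ELAND, kept unique alignments, and ran MACS on joined repeats with NIS as control, scaling the larger set down. The labels name 1 H3K4me1 library, although the protocol mentions repeats, so how many libraries this list rests on is not settled here. For Runx3, joining hides the spread between repeats, and unique alignment limits calls in repeated sequence.

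Gene records, transcripts and sequence were GENCODE vM1 and NCBIM37 (mm9), and 0 regions passed a chromosome end on the 20 chromosomes. Positions are counted from 1. The 100 other genes were matched by symbol, 1 of them by an older symbol, with the longest record where there were several. Members and gene groups were chosen with earlier results of these data known. Groups name up to 3 genes with most Runx3-bound regions. No test was made, since there is 1 list per antibody. Distances run from region centres. The motif search and counts were tested on simulated data (0 differences in 400 window queries, 284 overlaps and 300 planted motifs). Calculations used pandas 2.3.3 and NumPy 2.4.6 under Python 3.11.15, intervals SciPy 1.17.1, and plots matplotlib 3.10.9. Alternatives were other flanks, region centres, wide regions alone, other definitions of overlap and start, and basal domains.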

Additional observations from a re-analysis of the deposited data

How the results depend on the processing

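Of 42 alternative values for 8 results, 34 stayed within 1.5 times the reported count or within the 95% Wilson interval of the reported share, and 8 did not. This tally is a weak check, because some values could hardly leave these limits. A count of 6 or 7 among 9 genes cannot rise past 1.5 times. The interval for the overlap share of 11 regions was 28.0 to 78.7%. Placing regions by their centre returned the same counts. When only regions at least as wide as the median of their list were kept, in place of a stricter score that the lists do not hold, 3 genes (Slc2a1, Slc1a5 and Tfrc) instead of 6 had a Runx3-bound region (21.6% of all protein-coding genes), with 7 Runx3-bound and 12 H3K4me1-marked regions in all. The number of H3K4me1-marked regions fell from 31 to 18 with flanks of 5 kb and to 13 in gene bodies alone, and that of Runx3-bound regions rose from 11 to 17 with flanks of 50 kb. Of the 100 other nutrient uptake genes, 26 with flanks of 5 kb and 19 in gene bodies alone had a Runx3-bound region, instead of 43 (23.5% and 18.0% of all protein-coding genes). Of the 9 members, 6 had one with flanks of 5 kb and 6 in gene bodies alone. By construction, shorter windows and the width cut cannot raise a count, and longer windows cannot lower it. With basal domains extended up to 1 Mb, 7 of the 9 genes had a Runx3-bound region, compared to 35.5% of all protein-coding genes. Counting RUNX matches by their centre was chosen after seeing the data. No paired analysis was possible because each antibody has 1 list and no result comes from a test. The lists hold no read numbers, and depth limits the regions that can be called, so absence of a called region does not show absence of binding.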
